A study of Homo sapiens with 6 samples.

Results

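Plasminogen activation and matrix metalloproteolysis were followed through 9 genes, listed by name, out of 58288 Ensembl gene identifiers in the deposited table. They were PLAU and PLAT (the plasminogen activators uPA and tPA), PLAUR (the uPA receptor), MMP1, MMP2 and MMP14 (matrix metalloproteases) and TIMP1, TIMP2 and TIMP3 (their tissue inhibitors). T24 cells, a human bladder cancer (Bca) cell line, had been transfected with a control siRNA (NC) or with one of a pair of siRNAs, si-circ235-1 and si-circ235-2, of different sequences directed at the back-splice site of circ235, the circular RNA circ_0000235. Poly(A) RNA of each condition was sequenced without strand information in 2 libraries labelled as biological replicates, so 6 libraries of 1 cell line and 3 conditions were compared. Nothing in the labels ties a replicate number to a shared culture or day, and the p-values below measure the spread between these libraries. Circular RNA has no poly(A) tail, so the knockdown of circ235 has no value in these counts. The time between transfection and harvest is not given in the sources used here.

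uPA and tPA cut the zymogen plasminogen into plasmin, a broad serine protease that degrades fibrin and matrix proteins. uPA bound to its receptor confines this activity to the cell surface, where plasmin can also cut the inactive precursors of matrix metalloproteases. Secreted collagenases such as MMP1 and membrane-bound MMP14 then cleave collagens, and the TIMPs block the active enzymes, with TIMP2 also serving as the bridge by which MMP14 holds and activates pro-MMP2. In bladder tumors these enzymes and inhibitors have long been studied in connection with invasion through the basement membrane and muscle layer.

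Since the study placed circ235 upstream of miR-330-5p, the 3′ UTRs of the 9 genes were searched for the 7-letter word CCCAGAG, the reverse complement of bases 2 to 8 of this miRNA. The mature miRNA is shown from RefSeq (GRCh38.p14, chr19:45639049-45639070, minus strand) with those bases in capitals, and the matches are shown with their flanks and with the word in capitals.
hsa-miR-330-5p: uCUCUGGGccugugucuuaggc
MMP1 3′ UTR: ctgacgttgatCCCAGAGagcagcttcag
TIMP2 3′ UTR: gaagcatttgaCCCAGAGtggaacgcgtg
MMP1 held 1 match in its 492-nucleotide 3′ UTR (GRCh38 chr11:102790101-102790129, minus strand). TIMP2 held 1 match in 2690 nucleotides (GRCh38 chr17:78853646-78853674, minus strand). The word was in the 3′ UTR of 18.6% of 19126 genes, of 5.02% of those under 500 nucleotides and of 34.8% of those of 2000 nucleotides or more. The other 7 genes held none, and a match describes letters only, not a site that is bound. The promoters of PLAU, PLAUR, MMP14, TIMP1 and TIMP3 (250 bases before to 50 after each RefSeq start) were also searched on both strands for TGAGTCA or TGACTCA, the word of the transcription factor AP-1, since several genes of this system are textbook AP-1 targets. No promoter window was found for PLAT, MMP1, MMP2 and TIMP2, so these were not searched. Of the windows searched, that of PLAUR alone held the word, at bases -186 to -180 from the start (GRCh38.p14 chr19:43670338-43670366, minus strand). It was in 4.95% of 35116 promoters.
PLAUR promoter: tcacaactccaTGAGTCAgggccgagcca
The window lies on the strand of the gene and has the AP-1 word in capitals.

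The libraries held 15373992 to 19912893 counts, and 14415 genes passed the filter of edgeR on low counts. Levels are given as CPM, counts scaled to a common library size after TMM normalization, and the floor of 3 counts stood at 0.143 to 0.210 CPM. Counts of replicate libraries varied more than sampling alone would give (chi-square divided by its degrees of freedom, 23.5 to 35.4). The epithelial keratins KRT7, KRT8 and KRT18 were abundant in every library (619 to 2307 CPM), while KRT19, KRT5, TP63 and UPK3A, which mark urothelial layers, had at most 4 counts. The rest of this list was PPARG (353 to 1069 counts), EPCAM (22 to 48), GATA3 (1 to 20), UPK1A (4 to 15), UPK1B (1 to 12), UPK2 (1 to 11) and CDH1 (0 to 6). PPARG rose under si-circ235-1 (log2 fold change 0.90, edgeR adjusted p = 0.0264) and si-circ235-2 (1.13, edgeR adjusted p = 0.0031). KRT7 fell under si-circ235-2 (-0.76, edgeR adjusted p = 0.026). Of 5 leukocyte markers, 4 were at 0 in every library, and the fifth, CD14, had 43 and 47 counts in NC, 157 and 178 in si-circ235-1 and 36 and 36 in si-circ235-2. The summed level of 4 endothelial markers was 0.489 to 0.722 CPM in NC, 1.19 to 2.68 in si-circ235-1 and 1.12 to 1.58 in si-circ235-2, and that of 8 fibroblast and muscle markers was 0.525 to 0.856, 1.06 to 1.68 and 0.944 to 1.05 CPM. The part of these markers in the results was not tested.

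Of the 9 genes, 7 were expressed at a level that could be tested, and each siRNA moved a different pair of them past the threshold (a Benjamini-Hochberg adjusted p under 0.05 over all 14415 genes in the quasi-likelihood test of edgeR, referred to as called). Under si-circ235-1, PLAUR rose 2.99-fold and TIMP2 fell to 0.495 of its NC level. Under si-circ235-2, MMP1 rose 5.03-fold from a very low level and TIMP1 fell to 0.410 of its NC level. The inhibitors took opposite orders, with TIMP1 highest and TIMP2 lowest in the si-circ235-1 libraries and the reverse in those of si-circ235-2. Against NC, TIMP1 under si-circ235-1 (edgeR adjusted p = 0.0916) and TIMP2 under si-circ235-2 (edgeR adjusted p = 0.25) were not called. Set against each other, the siRNAs differed past the threshold for all 4 of these genes. The most abundant protease, PLAU, was not called in any comparison.

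**Figure D1:**
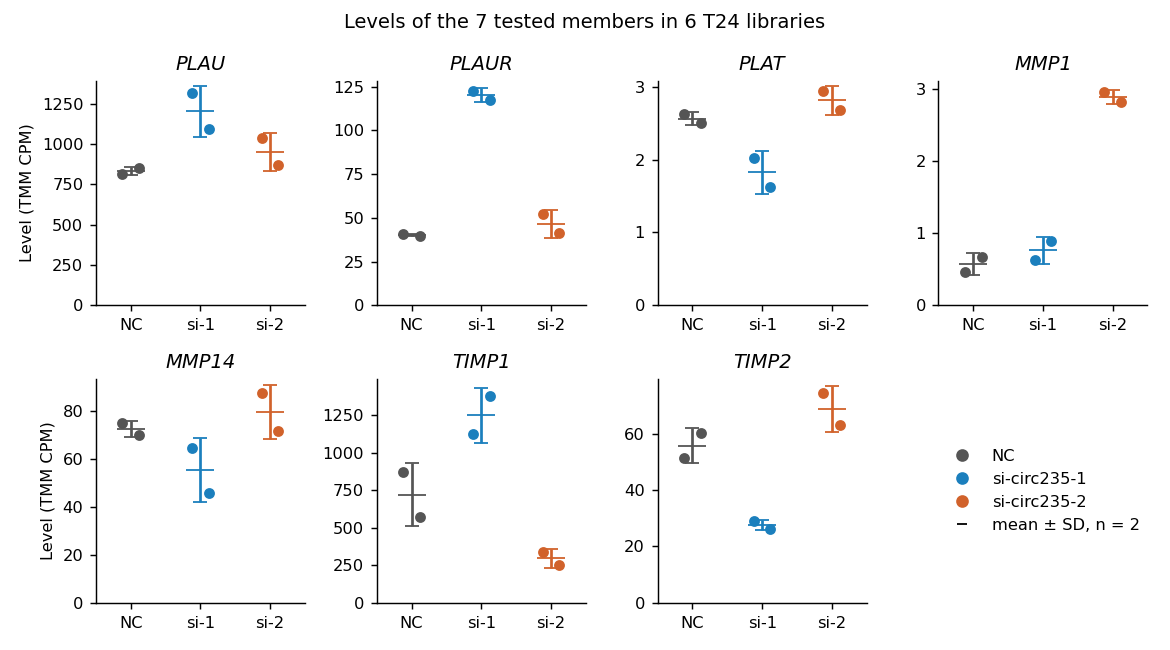
Level of each of the 7 tested genes (vertical axes, TMM CPM from 0) in NC, si-circ235-1 (si-1) and si-circ235-2 (si-2). Points are libraries and bars are the mean ± SD of 2. PLAUR stands apart in si-circ235-1 (117 and 123 CPM) and MMP1 in si-circ235-2 (2.82 and 2.95 CPM), while TIMP1 and TIMP2 take opposite orders over the conditions.

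Under si-circ235-1, 2 of 7 tested genes were called (1 higher, 1 lower), against 5.88% of all genes tested. Under si-circ235-2, 2 of 7 were called (1 higher, 1 lower), against 31.4% of all genes, so this share was close to the background. Between the siRNAs, 4 of 7 were called (2 higher and 2 lower in si-circ235-2), against 39.7%. The libraries of the compared conditions did not overlap for 6 of 7 genes in si-circ235-1 against NC (55% of all genes), for 6 of 7 in si-circ235-2 against NC (71.4%) and for 7 of 7 between the siRNAs (72.1%). Most genes of this dataset did the same in each comparison, and the counts of 7 were not tested against these shares. The median log2 fold change of the 7 was 0.43, 0.20 and 0.53 in these comparisons, beside -0.03, -0.00 and 0.04 over all genes. Both comparisons with NC rest on the same NC libraries and are not independent.

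PLAU, which encodes uPA, lies on chr10:73909177-73917497 (GRCh38, plus strand). Its level was 815 and 849 CPM in the NC libraries, 1317 and 1091 in si-circ235-1 and 1036 and 869 in si-circ235-2. All siRNA libraries were above both NC libraries, and the replicates of each siRNA were spread further apart (SD 160 and 118) than those of NC (SD 24.1). Its mean was 832 ± 24.1 (SD, n = 2), 1204 ± 160 and 952 ± 118 CPM. The log2 fold change of PLAU was 0.53 under si-circ235-1 (95% interval 0.05 to 1.01, edgeR adjusted p = 0.156) and 0.20 under si-circ235-2 (-0.28 to 0.67, edgeR adjusted p = 0.523). The siRNAs differed by -0.34 on the log2 scale (-0.82 to 0.14, edgeR adjusted p = 0.236). None of these was called. With each library corrected for a smooth trend over gene length and GC content, the PLAU value of si-circ235-1 became 0.74 and was called (edgeR adjusted p = 0.0121), as was the difference between the siRNAs at -0.46 (edgeR adjusted p = 0.0249). Reads cannot be told apart by strand from C10orf55, which shares 916 exon bases with PLAU on the opposite strand, but C10orf55 had only 23 to 54 counts beside 12417 to 19543 for PLAU.

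PLAT, which encodes tPA, was expressed at a far lower level, with 29 to 56 counts per library (chr8:42175233-42207724, minus strand). NC gave 2.62 and 2.51 CPM, si-circ235-1 2.03 and 1.62, and si-circ235-2 2.95 and 2.68. The si-circ235-1 libraries were the lowest and the si-circ235-2 libraries the highest, but the steps between conditions were small beside the counting error. Counting alone gave the NC libraries exact 95% binomial intervals of 1.87 to 3.57 and 1.80 to 3.40 CPM, and such intervals cover counting error only. PLAT was not called in any comparison, with log2 fold changes of -0.50 (edgeR adjusted p = 0.427) and 0.13 (edgeR adjusted p = 0.802) against NC and a difference between the siRNAs of 0.63 (-0.16 to 1.41, edgeR adjusted p = 0.182).

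PLAUR encodes the receptor that holds uPA at the cell surface (chr19:43646095-43670547, minus strand). It was at 40.5 and 39.7 CPM in NC, 123 and 117 in si-circ235-1, and 52.3 and 41.1 in si-circ235-2. The si-circ235-1 libraries stood far above the other 4, and the lower si-circ235-2 library lay next to NC. PLAUR rose under si-circ235-1 by 1.58 on the log2 scale (SE 0.19, 95% interval 1.16 to 2.00, edgeR adjusted p = 0.00593), and it ranked 10 by p among the 14415 genes. Under si-circ235-2 the change was 0.22 (-0.20 to 0.63, edgeR adjusted p = 0.407), which became 0.60 and a call with the length and GC trend removed (edgeR adjusted p = 0.0139). The difference between the siRNAs was called at -1.36 (SE 0.19, edgeR adjusted p = 0.000772), PLAUR being lower in si-circ235-2. Without the second si-circ235-1 library the rise was of the same size (1.62) and was no longer called (edgeR adjusted p = 0.13), in a fit in which edgeR called 0 of all genes, with 2110 at an unadjusted p under 0.05. Counts of PLAUR per count of PLAU, the receptor set against its ligand, were 0.0498 and 0.0468 in NC, 0.0933 and 0.107 in si-circ235-1 and 0.0505 and 0.0473 in si-circ235-2. In bulk RNA, more expression per cell and more cells of an expressing kind cannot be told apart. CD14, a marker of monocytes, was also highest in si-circ235-1 (log2 fold change against NC 1.87, edgeR adjusted p = 0.0104). The other 4 leukocyte markers were at 0 in every library. Whether cells of another kind had a part in the PLAUR level was not tested.

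MMP1, the interstitial collagenase, was close to the detection limit in NC, with 7 and 11 counts (chr11:102789920-102798160, minus strand). There were 9 and 16 counts in si-circ235-1 and 50 and 59 in si-circ235-2. In CPM these were 0.459 and 0.672, 0.630 and 0.893, and 2.95 and 2.82. Both si-circ235-2 libraries lay above all others with no overlap of their exact 95% counting intervals (2.19 to 3.89 and 2.15 to 3.64 CPM, against an upper bound of at most 1.45 CPM elsewhere), while NC and si-circ235-1 overlapped. MMP1 rose under si-circ235-2 by 2.33 on the log2 scale (SE 0.48, 95% interval 1.28 to 3.38, edgeR adjusted p = 0.0056). Under si-circ235-1 the change was 0.43 (-0.75 to 1.61, edgeR adjusted p = 0.661), and the difference between the siRNAs was 1.90 (SE 0.46, edgeR adjusted p = 0.00808). Without the first NC library the rise under si-circ235-2 was 2.08 with an edgeR adjusted p of 0.0669. WTAPP1, on the opposite strand with 150 shared exon bases, had 0, 0, 1, 2, 4 and 9 counts over the same libraries, and without strand its reads and those of MMP1 cannot be separated. Even at its highest, MMP1 was one of the least expressed of these genes.

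MMP1 sits in the chromosome 11 cluster of metalloprotease genes, where MMP7, MMP20, MMP27, MMP8, MMP10, MMP12 and MMP13 had at most 8 counts in any library. Its neighbor MMP3, which encodes stromelysin-1, an enzyme known to activate pro-MMP1, was the only other gene of the cluster that passed the filter. MMP3 had 42 and 48 counts in NC, 138 and 153 in si-circ235-1 and 209 and 195 in si-circ235-2. All siRNA libraries were above both NC libraries. MMP3 rose under si-circ235-1 by 1.67 on the log2 scale (edgeR adjusted p = 0.0127) and under si-circ235-2 by 1.92 (edgeR adjusted p = 0.00215). Leaving out either NC library or the second si-circ235-1 library ended the si-circ235-1 call (edgeR adjusted p up to 0.144).

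MMP2, the gelatinase that MMP14 activates with the help of TIMP2, had 1 count in a si-circ235-2 library and 0 in the other 5 (chr16:55389700-55506691, plus strand). By the floor of 3 counts, a count of 0 allows up to 0.143 to 0.210 CPM per library, and by the 2-sided exact intervals used for PLAT and MMP1 up to 0.176 to 0.258 CPM. It could not be tested, and no difference was detectable at this depth.

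MMP14, the membrane-anchored collagenase MT1-MMP, was expressed in all libraries (chr14:22836557-22849027, plus strand). Its level was 75.1 and 70.1 CPM in NC, 64.8 and 45.9 in si-circ235-1 and 87.8 and 71.7 in si-circ235-2. The si-circ235-1 libraries were the lowest, and those of si-circ235-2 overlapped NC. MMP14 was not called, with a log2 fold change of -0.39 under si-circ235-1 (-0.86 to 0.07, edgeR adjusted p = 0.277) and 0.14 under si-circ235-2 (-0.33 to 0.60, edgeR adjusted p = 0.66). The latter was -0.020 without the first si-circ235-2 library. Between the siRNAs it differed by 0.53 (0.06 to 0.99, edgeR adjusted p = 0.0685), which became a call of 0.86 without TMM factors (edgeR adjusted p = 0.00955), of 0.54 with the replicate number as a block (edgeR adjusted p = 0.0311) and of 0.79 without the first si-circ235-1 library (edgeR adjusted p = 0.0371).

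TIMP1, a secreted inhibitor of most matrix metalloproteases, lies on the X chromosome (chrX:47582313-47586789, plus strand) and was among the strongest expressed of the set. It was at 871 and 575 CPM in NC, 1123 and 1382 in si-circ235-1, and 340 and 253 in si-circ235-2. The conditions did not overlap, although the NC libraries were far apart (723 ± 209 CPM, SD, n = 2). TIMP1 fell under si-circ235-2 by 1.29 on the log2 scale (SE 0.26, 95% interval of the change -1.87 to -0.71, edgeR adjusted p = 0.0056). Under si-circ235-1 the change was 0.79 (0.22 to 1.37) and missed the threshold (edgeR adjusted p = 0.0916). The difference between the siRNAs, -2.08 (SE 0.27, edgeR adjusted p = 0.000644), was the largest of the 7 genes by size. The fall under si-circ235-2 was 0.96 and no longer called without the first NC library, the one with the higher TIMP1 level (edgeR adjusted p = 0.0675). Over the 13 alternatives the change of TIMP1 under si-circ235-2 ran from -1.54 to -0.69 on the log2 scale. The smallest fall, 0.69, came with the length and GC trend removed, and it kept the call. The value under si-circ235-1 was called in 5 of 13 alternatives, among them DESeq2 (0.82, adjusted p = 0.0155) and the fit of the 2 conditions alone (0.81, edgeR adjusted p = 0.0316).

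TIMP2, the inhibitor that also forms the bridge between MMP14 and pro-MMP2, showed the reverse order (chr17:78852977-78925387, minus strand). Its level was 51.4 and 60.1 CPM in NC, 28.96 and 26.2 in si-circ235-1, and 74.5 and 63.0 in si-circ235-2. The si-circ235-1 libraries lay at about the same low level and the si-circ235-2 libraries just above NC. TIMP2 fell under si-circ235-1 by 1.01 on the log2 scale (SE 0.19, 95% interval of the change -1.44 to -0.59, edgeR adjusted p = 0.018). The change under si-circ235-2 was 0.30 (-0.12 to 0.72, edgeR adjusted p = 0.25), and the difference between the siRNAs was 1.32 (SE 0.20, edgeR adjusted p = 0.000974). The fall under si-circ235-1 was the least secure of the 4 calls against NC among the 7 genes, since leaving out any 1 of the 4 libraries compared ended it (log2 fold change -1.12 to -0.86, edgeR adjusted p 0.0561 to 0.192). CEP295NL, which shares 198 exon bases on the same strand, had 0 to 11 counts beside 414 to 1319 for TIMP2. TIMP3, an inhibitor that binds to the matrix, had 0 counts in all 6 libraries (chr22:32801701-32863043, plus strand), with the same upper limits as for MMP2.

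**Figure D2:**
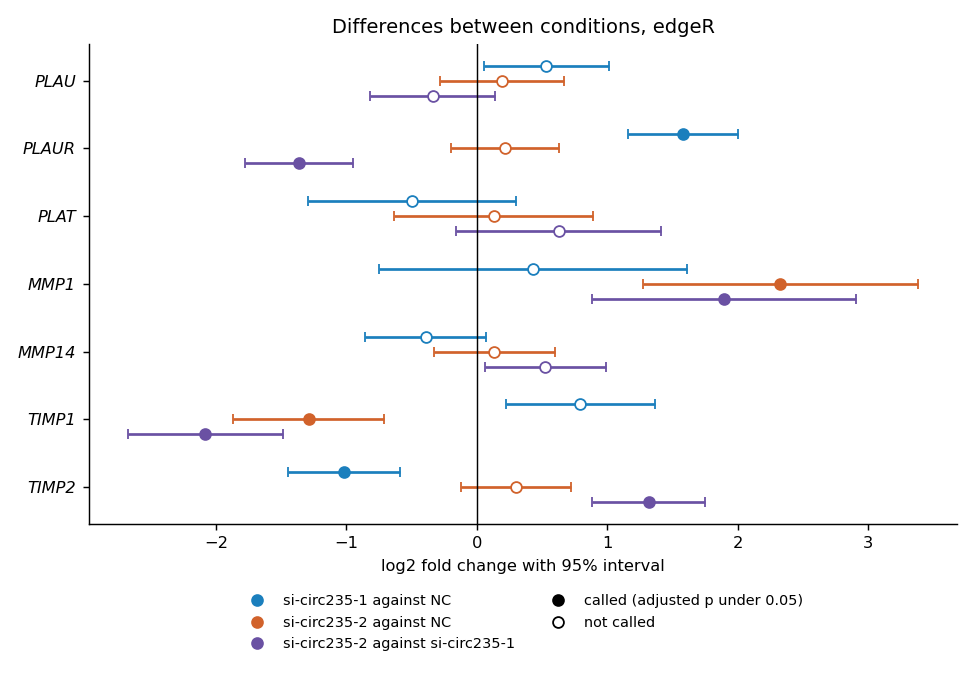
Log2 fold change of each tested gene with its 95% interval (horizontal axis) in si-circ235-1 against NC, si-circ235-2 against NC and si-circ235-2 against si-circ235-1, from edgeR. Filled points are called (adjusted p under 0.05). PLAUR (1.58) and TIMP2 (-1.01) are filled for si-circ235-1, MMP1 (2.33) and TIMP1 (-1.29) for si-circ235-2, and all 4 between the siRNAs.

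The opposite orders of TIMP1 and TIMP2 were clearest within libraries, where depth and scaling cancel. A shift between libraries tied to gene length or GC content does not cancel in such ratios. The longest transcripts of TIMP1 and TIMP2 have 1095 and 3652 nucleotides. There were 17.0 and 9.57 counts of TIMP1 per count of TIMP2 in NC, 38.8 and 52.7 in si-circ235-1, and 4.56 and 4.01 in si-circ235-2. The conditions did not overlap, and the NC libraries lay between the siRNAs. Counts of MMP14 per count of TIMP2 were 1.46 and 1.17 in NC, 2.24 and 1.75 in si-circ235-1 and 1.18 and 1.14 in si-circ235-2, so that the si-circ235-1 libraries were the highest. These ratios were chosen after the values were seen and are given as a description without a test. They show unequal change of the paired genes, not which of them changed.

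**Figure D3:**
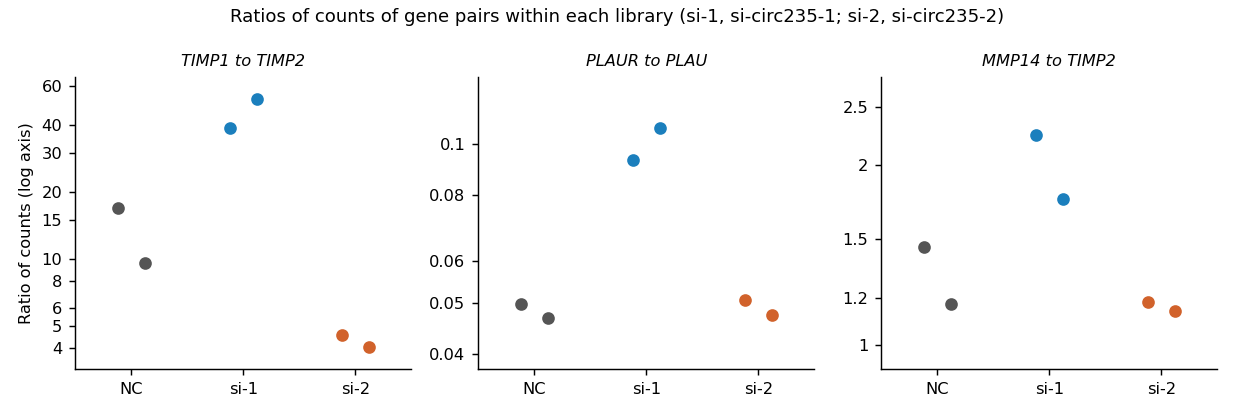
Ratio of the counts of paired genes within each library (vertical axes, logarithmic), for NC, si-circ235-1 (si-1) and si-circ235-2 (si-2), with 1 point per library and no replicate mean. TIMP1 per TIMP2 runs from 4.01 in si-circ235-2 to 52.7 in si-circ235-1, and PLAUR per PLAU from 0.0468 in NC to 0.107 in si-circ235-1.

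Levels of different genes were compared per kilobase of the longest transcript (RPKM). In NC the order was TIMP1 (660 ± 191 RPKM), PLAU (313 ± 9.07), PLAUR (24.9 ± 0.357), MMP14 (19.5 ± 0.949), TIMP2 (15.3 ± 1.69), PLAT (0.741 ± 0.0241) and MMP1 (0.287 ± 0.0765), each as mean ± SD of 2 libraries, with MMP2 and TIMP3 at 0. Under si-circ235-1 PLAUR pulled away from MMP14 (74.6 ± 2.46 against 14.8 ± 3.57 RPKM) and TIMP2 stood at 7.56 ± 0.527. Under si-circ235-2 PLAU (358 ± 44.4 RPKM) came before TIMP1 (271 ± 56.2), a pair within their combined spread, and MMP1 (1.46 ± 0.0466) came before PLAT (0.813 ± 0.0558). Among neighbors, PLAT and MMP1 under si-circ235-1 (0.527 ± 0.0837 and 0.386 ± 0.0946) and PLAUR, MMP14 and TIMP2 in turn under si-circ235-2 (28.99 ± 4.93, 21.4 ± 3.05 and 18.8 ± 2.22) also did not differ beyond their spread. The place of PLAUR depends on the length used, since by all exon bases together it comes after MMP14 and TIMP2 in NC and si-circ235-2.

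Over the 6 libraries PLAUR followed PLAU (Pearson r 0.91 of log2 CPM) and ran against TIMP2 (-0.90), while MMP14 and PLAT ran together (0.96). With 3 conditions of 2 libraries such values describe the order of the conditions more than any link between genes. The genes most like PLAU were TMEM50B (r 0.989), AC148477.2 (0.989) and VPS26B (0.987), and 30 of 10377 genes reached an r of 0.95. Those most like MMP1 were CRY1 (r 0.998), CLCN6 (0.997) and IVNS1ABP (0.997), and 482 of 10378 genes reached 0.95, so the MMP1 order of conditions was common in these libraries.

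The wider plasminogen system was described by 21 genes (inhibitors, receptors and other activators), of which 12 were tested. Plasminogen itself (PLG, named after its values were seen) had 0 counts in every library. Under si-circ235-1, edgeR called 0 of the 12 (3 at an unadjusted p under 0.05, and 0 of 18 by DESeq2), and 1 was called higher with the length and GC trend removed, with a median log2 fold change of -0.00 beside -0.03 over all genes (-0.15 to 0.16 over the alternatives). Under si-circ235-2, 4 were higher and 3 lower, against 15.7% of all genes in each direction, with a median of -0.50 beside -0.00. The median was -0.21 with DESeq2, -0.23 without TMM factors and -0.29 with the trend removed, where 3 were higher and 2 lower, and 1 was higher and 1 lower without the first NC library. IGF2R, a receptor that binds latent growth factors and plasminogen, rose by 2.24 on the log2 scale and had the lowest p of all genes tested (edgeR adjusted p = 0.00145). LRP1, an endocytic receptor that takes part in the clearance of uPA, rose by 1.05 (edgeR adjusted p = 0.00555). S100A10, part of the annexin complex that binds plasminogen at the cell surface, fell by 1.23 (edgeR adjusted p = 0.00341), and F12 fell by 1.17 (edgeR adjusted p = 0.00541). The calls of LRP1 and F12 were lost without the first NC library, and that of F12 also with the length and GC trend removed (edgeR adjusted p up to 0.119), whereas those of IGF2R and S100A10 held in all 13 alternatives, although the rise of IGF2R was 1.43 with the trend removed.

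Between the siRNAs, 3 of the 12 genes were higher and 2 lower in si-circ235-2 (21.1% and 18.6% of all genes), with a median difference of -0.11 (0.23 without TMM factors), and 2 were higher and 4 lower with the trend removed. These included IGF2R with a difference of 1.67 (edgeR adjusted p = 0.000489, and 0.87 with the trend removed) and S100A10 with -1.41 (edgeR adjusted p = 0.00105).

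Of 20 other matrix metalloproteases, 7 were tested, and 1 was higher and 1 lower under each siRNA (2.24% and 3.64% of all genes for si-circ235-1, and 15.7% each way for si-circ235-2). MMP3 was the higher one both times. The lower one under si-circ235-1 was MMP11, with 16 and 20 counts in NC and 3 and 1 in si-circ235-1, a call (edgeR adjusted p = 0.0442) that 6 of 13 alternatives did not keep. Under si-circ235-2 it was MMP17, a membrane-anchored enzyme, which fell by 1.30 on the log2 scale (edgeR adjusted p = 0.00945), with 62.8 and 30.2 CPM in NC and 20.1 and 17.6 in si-circ235-2. The value of MMP17 was -0.38 and not called with the length and GC trend removed (edgeR adjusted p = 0.198), and -0.69 and not called without the first NC library (edgeR adjusted p = 0.129). The median of the 7 was -0.09 under si-circ235-1 and -0.20 under si-circ235-2, and it changed sign in both with other settings (0.24 with the trend removed and 0.06 without TMM factors). Between the siRNAs 2 were higher (21.1% of all genes) and 1 lower (18.6%), with a median difference of 0.01. One of the higher, MMP24, had 5 and 10 counts in NC, 2 and 7 in si-circ235-1 and 18 and 23 in si-circ235-2, passed the filter only through the si-circ235-2 libraries, and lost its call in 12 of 13 alternatives.

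Of 11 activators and further inhibitors of metalloproteases, 8 were tested, and 1 was higher and 1 lower under each siRNA (2.24% and 3.64% of all genes for si-circ235-1, and 15.7% each way for si-circ235-2). Under si-circ235-1, RECK, a membrane-anchored inhibitor, rose by 0.91 on the log2 scale (edgeR adjusted p = 0.0378), and FURIN, the convertase that activates pro-MMP14, fell by 0.82 (edgeR adjusted p = 0.0358). RECK was at 13.9 and 14.1 CPM in NC and 25.3 and 27.3 in si-circ235-1, and FURIN at 70.7 and 73.2 and at 46.0 and 35.8. Each of these calls ended when any 1 of the 4 libraries compared was left out, and that of RECK also without TMM factors. Under si-circ235-2, PCSK7, another convertase, rose by 1.10 (edgeR adjusted p = 0.0458), and BSG, the surface protein known as an inducer of metalloproteases, fell by 1.02 (edgeR adjusted p = 0.00935). The call of BSG was lost without the first NC library. That of PCSK7 was lost in 5 of 13 alternatives, among them either NC library left out (edgeR adjusted p 0.294 and 0.0509), the replicate block (edgeR adjusted p = 0.0731) and the trend removed (0.31, edgeR adjusted p = 0.533). Between the siRNAs 2 were higher (PCSK7 1.72, FURIN 1.00) and 2 lower (RECK -1.23, TFPI2 -0.85) in si-circ235-2, against 21.1% and 18.6% of all genes. RECK and FURIN held that call in all 13 alternatives. The median of the 8 was -0.53 and -0.39 against NC and 0.47 between the siRNAs, the last becoming -0.23 with the length and GC trend removed. THBS2, named for this limit alone, passed the filter only through the NC libraries, where it was high. Its presence in these medians, with -2.19 and -0.84 against NC (neither called), was thus set by that level.

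Of 20 ADAM and ADAMTS proteases, which shed surface proteins and cleave proteoglycans, 13 were tested. Under si-circ235-1 edgeR called 0 of them (2 at an unadjusted p under 0.05, and 0 of 19 by DESeq2), while 1 was called lower with no filter and 1 with the trend removed, and the median of -0.19 became 0.08 in the latter. Under si-circ235-2, 6 were higher and 1 lower, against 15.7% of all genes each way, with a median log2 fold change of 0.36 beside -0.00. ADAM19 and ADAMTS6 are among the 6 and passed the filter only through the si-circ235-2 libraries, where they were high, so that their presence in these counts and medians was set by that level. ADAM17, the sheddase of TNF and of EGF receptor ligands, rose by 2.86 on the log2 scale (edgeR adjusted p = 0.0107), from 17 and 43 counts in NC to 217 and 305. ADAM9 rose by 1.92 (edgeR adjusted p = 0.0154). DESeq2 called neither ADAM17 nor ADAM9 (adjusted p = 0.0521 and 0.0604). ADAM19 had 7 and 6 counts in NC, 8 and 5 in si-circ235-1 and 38 and 44 in si-circ235-2. ADAMTS6 had 4 and 1, 5 and 10, and 19 and 44. Without the first NC library 0 of the 13 were called, and DESeq2 called 4 higher and 1 lower of 19. ADAM9 replicates were far apart, at 40.9 and 95.4 CPM in si-circ235-2 and 9.77 and 26.3 in NC. Between the siRNAs 6 were higher and 1 lower in si-circ235-2, against 21.1% and 18.6% of all genes, with a median difference of 0.73 beside 0.04. With the trend removed these were 4 and 2, with a median of 0.43. The 6 higher genes again include ADAM19 and ADAMTS6, with the same limit from the filter. The ADAMTS6 call between the siRNAs (edgeR adjusted p = 0.0469) was lost with DESeq2, the replicate block and the trend removed, among others.

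**Figure D4:**
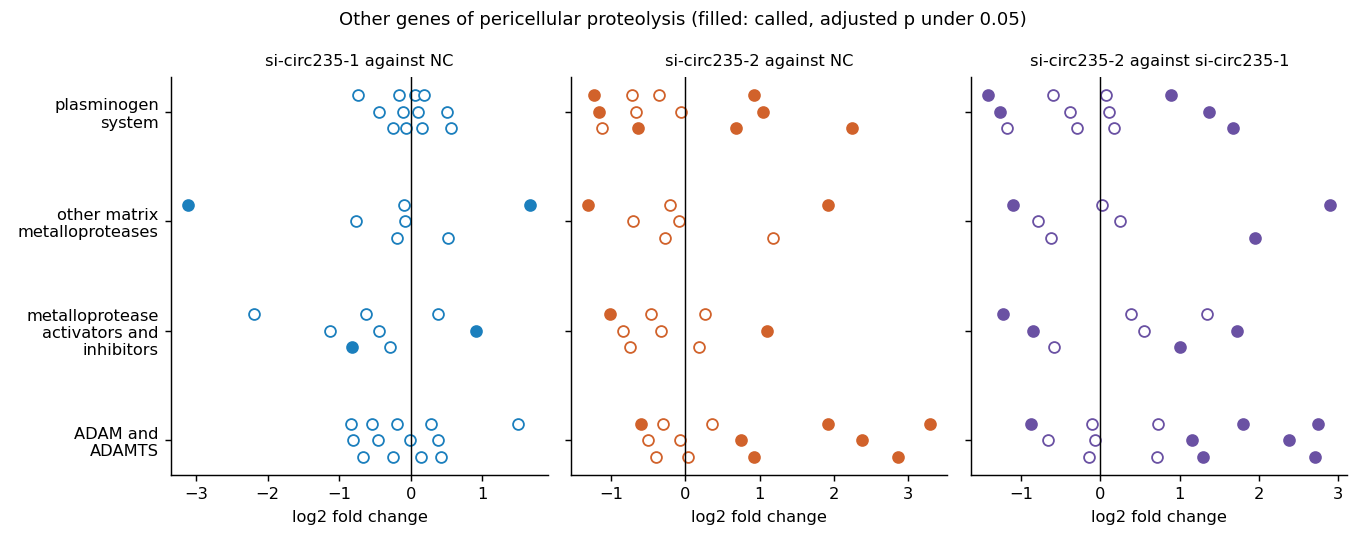
Log2 fold change (horizontal axis) of each tested gene of the 4 further lists in the 3 comparisons, with 1 point per gene and filled points for called genes (adjusted p under 0.05, edgeR). Under si-circ235-1 the plasminogen and ADAM and ADAMTS lists have no filled point, and under si-circ235-2 they have 7 each.

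**Figure D5:**
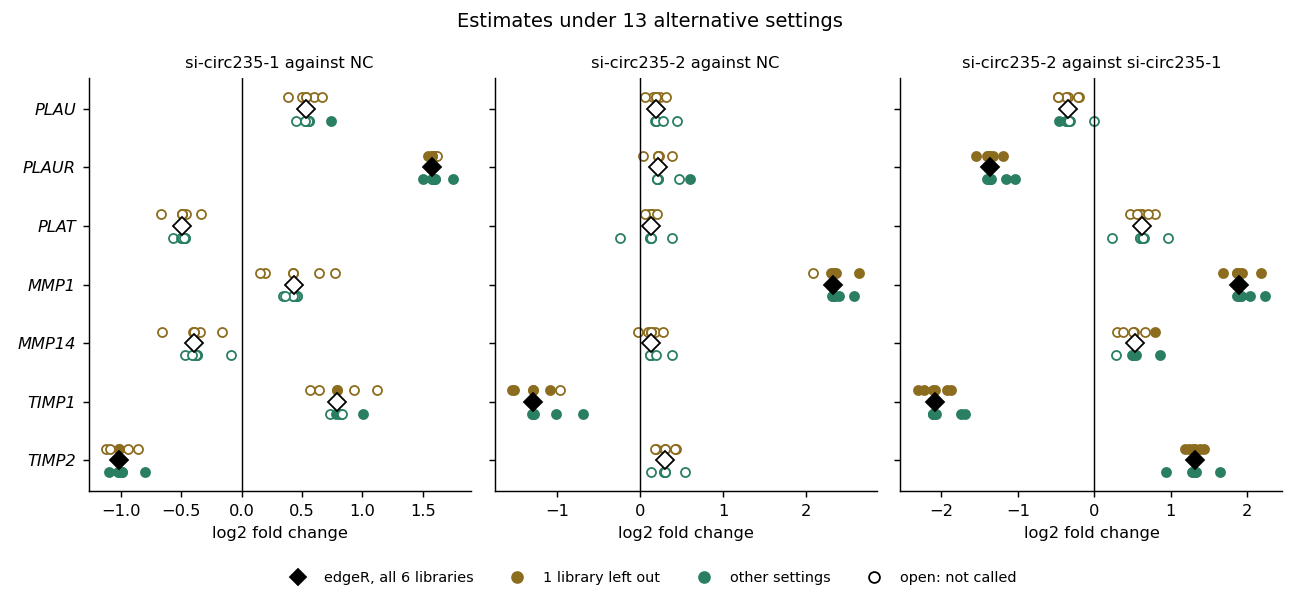
Log2 fold change of each tested gene (horizontal axis) in the fit of all 6 libraries (diamonds) and under 13 alternatives, 6 that each leave out 1 library and 7 other settings. Filled symbols are called. PLAUR, MMP1, TIMP1 and TIMP2 are filled throughout between the siRNAs, while the TIMP2 value of si-circ235-1 against NC is open whenever 1 of the libraries compared is left out.

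Across the 13 alternatives, the calls of PLAUR, MMP1, TIMP1 and TIMP2 between the siRNAs held every time, with log2 differences of -1.55 to -1.03, 1.68 to 2.23, -2.31 to -1.69 and 0.94 to 1.65. Calls against NC depended more on single libraries, as given for each gene. Of the genes with the miR-330-5p word, MMP1 was higher under si-circ235-2 and not called under si-circ235-1, and TIMP2 was lower under si-circ235-1 and not called under si-circ235-2.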

How the data were processed

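Poly(A) RNA of T24 cells (NC, si-circ235-1 and si-circ235-2, 2 libraries each) was sequenced without strand information, and the authors deposited raw whole-number counts of reads per gene. The submitters' processing notes name FastQC, cutadapt, STAR and hg38. No source used here names the counting tool, the annotation or a version. The sample labels gave the conditions and replicate numbers. Identifiers were matched to GENCODE release 29 of GRCh38 (99.5% found, 95.5% with the same version), which gave symbols, lengths and 3′ UTRs. Promoters and the miRNA came from RefSeq tables (GRCh38.p14).

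The quasi-likelihood test of edgeR 4.0.16 (R 4.3.3) was fitted with 1 mean per condition to all 6 libraries, after filterByExpr and TMM, and p-values were adjusted by Benjamini-Hochberg over 14415 genes (threshold 0.05). CPM used the TMM-scaled library sizes. Counting intervals are exact binomial intervals (95%) of a gene's count out of the tested counts of its library. The members and lists were chosen with earlier results of these data known. All members are named, and of each list at most 4 called genes with the largest change per comparison, except 1 gene that is not reported here. Likeness was searched among tested genes of at least 5 CPM. Alternatives were no TMM factors, DESeq2 1.42.0 and its size factors, no filter, 2 conditions alone, a replicate block, removal of a length and GC trend (splines, 5 degrees of freedom each) and each library left out.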

Additional observations from a re-analysis of the deposited data

Results flagged for a closer look

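The effects of the siRNAs on 4 of the 7 tested genes differed by a test of the difference itself, the edgeR comparison of si-circ235-2 with si-circ235-1. On the log2 scale the difference was -1.36 for PLAUR (edgeR adjusted p = 0.000772), 1.90 for MMP1 (edgeR adjusted p = 0.00808), -2.08 for TIMP1 (edgeR adjusted p = 0.000644) and 1.32 for TIMP2 (edgeR adjusted p = 0.000974). For TIMP1 and TIMP2 the siRNA libraries lay on opposite sides of both NC libraries. Such differences were common in these data, since 39.7% of all genes tested were called between the siRNAs. With 2 libraries a condition, no library could be tested as an outlier.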

How the results depend on the processing

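Over the 7 tested genes, 3 comparisons and 13 alternatives, 253 values kept their direction and side of the threshold, 11 gained a call, 7 lost one and 2 changed sign, both uncalled: PLAT in si-circ235-2 against NC (-0.24 with the length and GC trend removed) and MMP14 in the same comparison (-0.020 to 0.27 with 1 library left out, the former without the first si-circ235-2 library). Of all genes, 847 called in si-circ235-1 against NC became 1335 with DESeq2, 1678 with no filter, 1642 with the 2 conditions alone and 1969 with the trend removed, where 4 of the 7 genes were called. The cause was not tested. Leaving out 1 library at a time gave 0 to 1482 genes and 0 to 3 of the 7 in si-circ235-1 against NC (0 genes without the second si-circ235-1 library, 2110 at an unadjusted p under 0.05), 769 to 4240 genes and 0 to 2 of the 7 in si-circ235-2 against NC (lowest without the first NC library), and 2817 to 5558 genes and 4 to 5 of the 7 between the siRNAs. The lone library of a condition is then assumed to vary like the others. Without TMM factors the median of all genes moved to -0.11, 0.25 and 0.37 in the 3 comparisons, and the higher and lower calls, 323 and 524, 2270 and 2260, and 3047 and 2678, became 179 and 529, 3173 and 1294, and 4534 and 1496. With the trend removed they were 1189 and 780, 1615 and 2113, and 2477 and 3346. Same-numbered libraries did not all deviate together (correlations -0.09, 0.15 and 0.14). With 2 libraries a condition, these values cannot tell whether the numbers stand for a shared culture or day. With the replicate block, edgeR called 937, 4750 and 6043 genes, and 2, 2 and 5 of the 7. With 2 libraries a condition, small changes of weakly expressed genes such as PLAT could not be resolved.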
